A study of Mus musculus with 25 samples.

Results

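The genes Tgm4, Mmp7, Pbsn, Msmb, 9530053A07Rik and 2300002M23Rik of male accessory glands were examined in the sperm transcriptome of mice, and they are 6 of the 24358 genes of the deposited table. They were chosen by name as genes of the prostate and coagulating gland, and in part on their counts in one of the conditions, C57.D300.F2, so that their values are given as a description without a test. RNA of sperm that swam out of the cauda epididymis was read by all-RNA-seq, a method that covers both long and small RNAs, in 25 libraries falling into 5 conditions of 5 libraries each. C57.CTL.F1 and FVB.CTL.F1 are first generation males of the inbred strains C57BL/6J and FVB/N, whose mothers received the corn oil vehicle by mouth from embryonic day 9 to 19. C57.D300.F1 and FVB.D300.F1 are first generation males whose mothers received 300 mg/kg/day of the plasticizer di(2-ethylhexyl) phthalate (DEHP) over the same days. C57.D300.F2 are second generation C57BL/6J males, fathered by exposed C57.D300.F1 males with unexposed females. The labels give an age of 14 weeks for the males. No second generation vehicle condition was analysed here. The first generation C57BL/6J libraries, 10 in number, are marked as a re-analysis and the other 15 are not, and no condition has libraries of both kinds. Any difference between C57.D300.F2 and either of these C57BL/6J conditions therefore cannot be told apart from a difference between the sets of libraries.

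The table holds 1 value per gene and condition, an estimated fragment count that combines the 5 libraries, so that no value has a replicate check. Summed over genes, these counts came to 6921688 in C57.D300.F2, 7748902 in C57.D300.F1, 8602900 in C57.CTL.F1, 8278486 in FVB.D300.F1 and 7568129 in FVB.CTL.F1. Errors are given as ± the SD of the count under the model of the quantification program Cuffdiff, which is not a measured spread between animals. Because the genes were in part selected on C57.D300.F2, gaps from that condition are set beside this SD as a description only. The limit of detection was set at 3 counts, which considers counting error only. All 6 genes had a usable estimate in all 5 conditions, and 5 of the 6 reached 10 counts in at least 1 of them.

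The mouse prostate consists of paired lobes around the urethra, and its anterior lobes are also called the coagulating gland. These androgen-dependent epithelia secrete proteins that meet sperm and seminal vesicle fluid at ejaculation, after sperm have left the cauda epididymis. A transglutaminase from the coagulating gland cross-links seminal vesicle proteins into the copulatory plug.

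Tgm4 encodes this transglutaminase. Its estimated count was 199.6 ± 97.8 in C57.D300.F2, 38.7 ± 12.6 in C57.D300.F1, 30.1 ± 10.5 in C57.CTL.F1, 75.1 ± 27.2 in FVB.D300.F1 and 33.9 ± 11.6 in FVB.CTL.F1. C57.D300.F2 was thus highest, FVB.D300.F1 came next, and the 3 remaining conditions were close to each other. The gap of 124.5 counts between C57.D300.F2 and FVB.D300.F1 was larger than its model SD of 101.5, and the gap of 36.4 between FVB.D300.F1 and C57.D300.F1 was larger than its model SD of 30.0. The steps among the 3 lowest conditions were within the model SD.

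Pbsn encodes probasin, an androgen-regulated secreted lipocalin of the prostate. Its count was 62.7 ± 31.1 in C57.D300.F2, 0.280 ± 1 in C57.D300.F1, 2.74 ± 2.45 in C57.CTL.F1, 18.4 ± 10.9 in FVB.D300.F1 and 0.559 ± 1 in FVB.CTL.F1. Probasin RNA was therefore over the limit of detection in C57.D300.F2 and FVB.D300.F1 and under it in the other conditions. The step from C57.D300.F2 to FVB.D300.F1 was 44.3 counts with a model SD of 32.96, and that from FVB.D300.F1 to C57.CTL.F1 was 15.6 with a model SD of 11.2.

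9530053A07Rik, listed in RefSeq with the synonym FCGBP, lies beside Fcgbp, the gene of a large mucin-associated protein named for binding the Fc part of IgG. Its count was 1148 ± 1105 in C57.D300.F2, 4.08 ± 2.65 in C57.D300.F1, 36.2 ± 18.5 in C57.CTL.F1, 311 ± 177 in FVB.D300.F1 and 15.7 ± 6.78 in FVB.CTL.F1. It had the widest range of the 6 genes. The gap between C57.D300.F2 and FVB.D300.F1, 837 counts, was smaller than its model SD of 1119, whereas each lower step of the order exceeded its own. Fcgbp itself lay between 9.24 counts in C57.D300.F1 and 23.8 in FVB.D300.F1, with 15.0 in C57.D300.F2. How reads that fit both genes were assigned was not tested.

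2300002M23Rik is a protein-coding gene on chromosome 17 with the RefSeq synonyms Stg and emprin. Its count was 240.5 ± 72.2 in C57.D300.F2, 10.9 ± 5.10 in C57.D300.F1, 18.8 ± 7.48 in C57.CTL.F1, 23.8 ± 9.22 in FVB.D300.F1 and 7.91 ± 4.47 in FVB.CTL.F1. C57.D300.F2, on which the genes were in part selected, was 216.6 counts above the next condition with a model SD of 72.8. The steps among the other 4 conditions were within the model SD.

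Mmp7 encodes matrilysin, a metalloproteinase made by gland and duct epithelia. Its count was 1112 ± 280.2 in C57.D300.F2, 998 ± 249.8 in C57.D300.F1, 917 ± 238 in C57.CTL.F1, 1162 ± 310.2 in FVB.D300.F1 and 1791 ± 594 in FVB.CTL.F1. No conditions next to each other in level differed beyond the model SD, and the highest value was that of FVB.CTL.F1. Msmb encodes beta-microseminoprotein, a secreted protein of the prostate. Its count lay between 0.972 in C57.D300.F2 and 0.196 in FVB.CTL.F1, under the limit of detection in all 5 conditions. No ratio is given for Msmb.

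**Figure D1:**
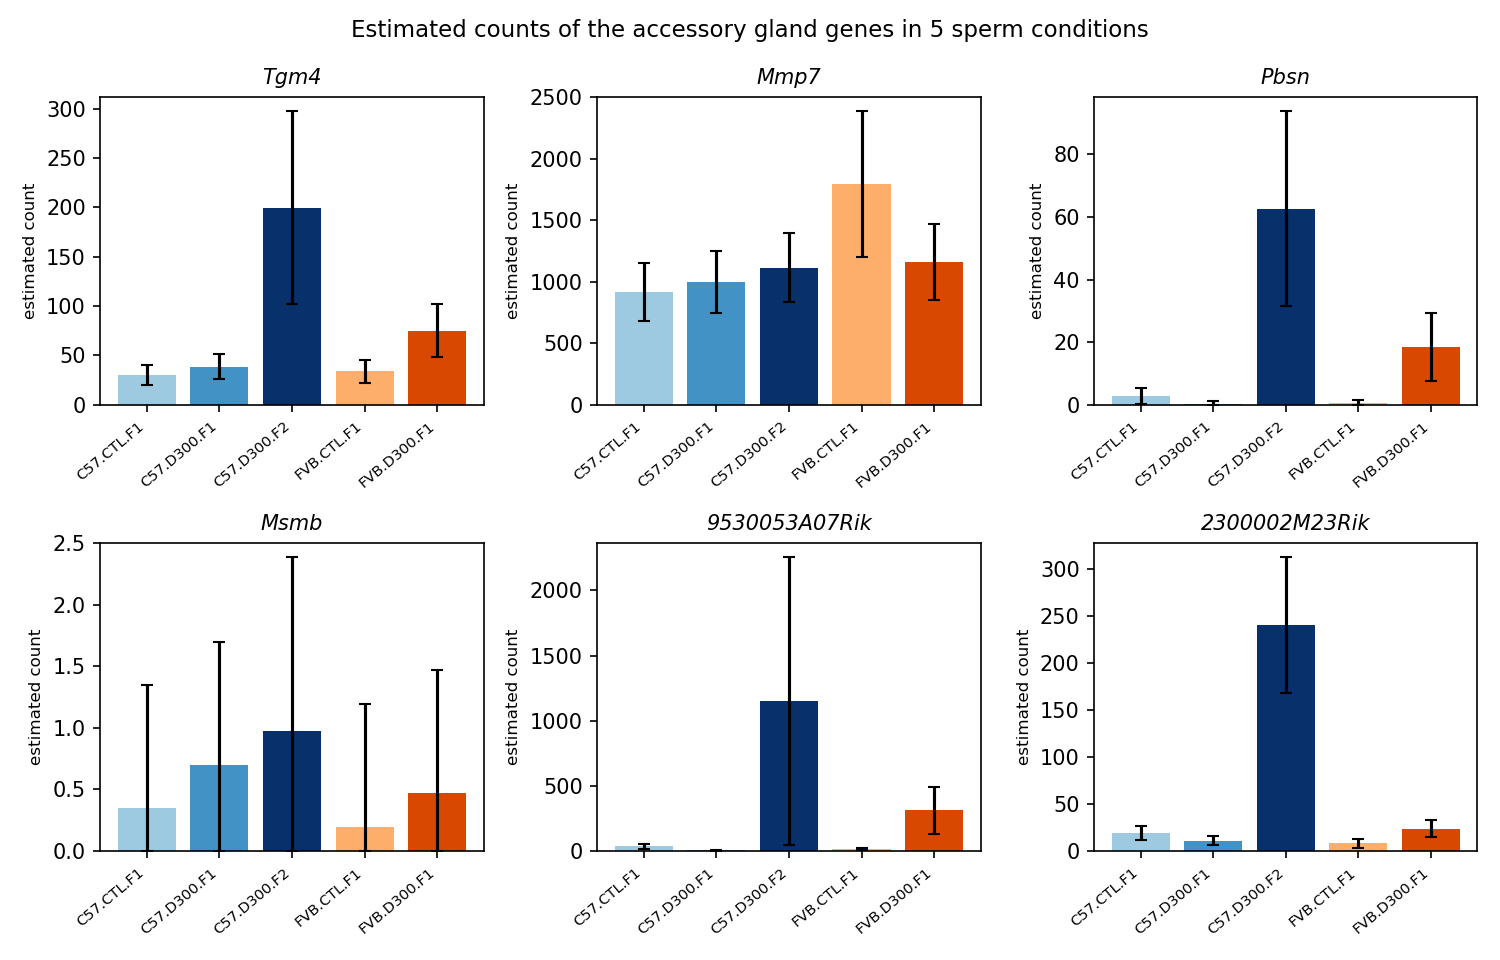
Estimated fragment count (vertical axes, starting at 0, each panel with its own scale) of the 6 accessory gland genes in the 5 conditions, with bars for the value that combines 5 libraries and whiskers for 1 SD under the Cuffdiff model, ending at 0. Tgm4, Pbsn, 9530053A07Rik and 2300002M23Rik are highest in C57.D300.F2, Mmp7 is highest in FVB.CTL.F1 at 1791, and Msmb stays under 1 count.

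Per kilobase of annotated exon, the scale on which genes can be compared, the order in C57.D300.F2 was Mmp7 with 1041 counts per kilobase, 2300002M23Rik with 160.0, 9530053A07Rik with 96.9, Pbsn with 69.5, Tgm4 with 43.8 and Msmb with 1.65. In C57.CTL.F1 Mmp7 stood at 859 counts per kilobase and the next gene, 2300002M23Rik, at 12.5. Matrilysin RNA was thus the most abundant of the 6 per length in both conditions. The exonic length used was 11843 bases for 9530053A07Rik and between 589 and 4555 bases for the other 5 genes.

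The 4 genes that reached 10 counts and had their highest count in C57.D300.F2 lie on 4 chromosomes. In the mm10 genome, with the gene limits of GENCODE M21 on the same assembly (GRCm38), Tgm4 spans chr9:123034726-123067561 on the plus strand, 9530053A07Rik chr7:28129466-28164811 on the plus strand, 2300002M23Rik chr17:35567450-35568952 on the plus strand and Pbsn chrX:77837901-77853623 on the minus strand. Mmp7 spans chr9:7692090-7699585 and Msmb chr14:32142023-32158370, both on the plus strand. The 3' end of Tgm4 overlaps that of Zdhhc3 on the other strand, and Tgm4 also overlaps the noncoding Gm49323 on its own strand. Genes on the other strand overlap Mmp7 (AV064505) and Msmb (Gm18909). The authors aligned the reads as strand-specific, and whether the counting used strand is not given in the sources used here.

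Because these 4 genes shared their highest condition, the 250 bases before their annotated starts are shown, from RefSeq (GRCm38.p6), 5' to 3' on the strand of the gene. The windows lie at chr9:123034491-123034740 for Tgm4, at chrX:77853501-77853750 on the minus strand for Pbsn, at chr7:28129216-28129465 for 9530053A07Rik and at chr17:35567235-35567484 for 2300002M23Rik. The RefSeq starts of Tgm4, Pbsn and 2300002M23Rik lie inside the GENCODE limits, so that these 3 windows reach into the GENCODE gene. Capitals mark AGAACA, core letters of the glucocorticoid response element, and TATAAA, the TATA box letters, each searched on both strands (TGTTCT and TTTATA on the other strand).
Tgm4: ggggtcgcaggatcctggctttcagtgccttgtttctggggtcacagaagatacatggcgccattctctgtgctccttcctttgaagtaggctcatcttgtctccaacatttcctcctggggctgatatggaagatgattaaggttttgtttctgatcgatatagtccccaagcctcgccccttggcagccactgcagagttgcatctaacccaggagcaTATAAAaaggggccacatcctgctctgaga
Pbsn: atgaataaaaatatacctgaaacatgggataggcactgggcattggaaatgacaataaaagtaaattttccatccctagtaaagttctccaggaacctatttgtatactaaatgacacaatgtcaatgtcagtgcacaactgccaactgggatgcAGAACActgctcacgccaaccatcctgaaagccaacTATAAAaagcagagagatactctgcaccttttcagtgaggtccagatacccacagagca
9530053A07Rik: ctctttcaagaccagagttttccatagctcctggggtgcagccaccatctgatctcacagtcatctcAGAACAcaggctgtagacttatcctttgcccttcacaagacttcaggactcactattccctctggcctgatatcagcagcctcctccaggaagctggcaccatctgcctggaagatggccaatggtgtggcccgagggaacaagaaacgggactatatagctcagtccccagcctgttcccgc
2300002M23Rik: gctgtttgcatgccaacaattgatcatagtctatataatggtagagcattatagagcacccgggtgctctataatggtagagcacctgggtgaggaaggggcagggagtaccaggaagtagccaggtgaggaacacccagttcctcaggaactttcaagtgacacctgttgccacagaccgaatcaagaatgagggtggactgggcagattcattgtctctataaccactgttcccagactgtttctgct

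Sequences were matched for 5 of the 6 genes, all but Msmb. AGAACA was found in 2 of the 5 windows, 90 to 95 bases before the start of Pbsn and 178 to 183 bases before that of 9530053A07Rik. Of the windows of 27025 genes, 16.1% hold AGAACA on either strand. TATAAA was found in 3 of the 5, 25 to 30 bases before the start of Tgm4, 54 to 59 bases before that of Pbsn and at 2 places before that of Mmp7, and 13% of all windows hold it. The 4 genes had no motif of the pair in common, and the window of 2300002M23Rik had neither. These matches are a description of letters and say nothing of binding.

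The second generation was compared with both first generation C57BL/6J conditions to see which accessory gland RNAs differed between generations. Log2 ratios were computed after adding 1 to each count, and a gene was called past the threshold at 2 log2 units or more with at least 10 counts in 1 of the 2 conditions. Against C57.CTL.F1, 4 of the 6 genes were higher in C57.D300.F2 past the threshold, beside 100 of 17114 genes or 0.584%. The number of higher genes, 100, was 175 with equal totals, 27 with a pseudocount of 10 and 31 with a minimum of 100 counts. The log2 ratio was 2.69 for Tgm4, 4.09 for Pbsn, 4.95 for 9530053A07Rik and 3.61 for 2300002M23Rik. Since the genes were selected on C57.D300.F2, nothing is read from this count. As ratios of counts, Tgm4 was 6.64-fold, 9530053A07Rik 31.7-fold and 2300002M23Rik 12.8-fold higher. Pbsn was 22.8-fold higher, over a count under the limit of detection, with a 95% counting interval from 7.15 to 126. The differences exceeded their model SD for all 4, but for 9530053A07Rik only just, with 1112 counts against 1106. As the genes were in part selected on these counts, nothing is read from this either. Mmp7 had a log2 ratio of 0.28, and its difference was within the model SD.

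Against C57.D300.F1, the generation of the fathers, the same 4 genes were higher past the threshold, beside 57 of 17133 genes or 0.333%. With a pseudocount of 10 the 57 became 26. Tgm4 had a log2 ratio of 2.34, 9530053A07Rik of 7.82 and 2300002M23Rik of 4.34. Pbsn was at least 20.9-fold higher, counted against the limit of 3 counts. All 12 liver genes were lower past the threshold here, with a median of -5.12, and 4 of 13 seminal vesicle genes were higher. The 12 germ cell genes had a median of -0.98 and none passed. The part of these lists in the differences was not tested. Both comparisons share C57.D300.F2 and both cross the sets of libraries.

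Among the 15 libraries not marked as a re-analysis, C57.D300.F2 can be compared with FVB/N, where strain, generation and exposure differ together. Against FVB.CTL.F1, the same 4 genes were again higher past the threshold, beside 424 of 16969 genes or 2.5%, with log2 ratios of 2.52 for Tgm4, 6.10 for 9530053A07Rik and 4.76 for 2300002M23Rik and a count of Pbsn at least 20.9-fold higher. With a pseudocount of 10 the 424 became 162. Against FVB.D300.F1, 1 of the 6 genes was, 2300002M23Rik with 3.28, beside 346 of 17122 genes or 2.02%. The 346 became 530 with equal totals, where 9530053A07Rik passed as well, and 143 with a pseudocount of 10. Below the threshold were Tgm4 at 1.40, Pbsn at 1.72 and 9530053A07Rik at 1.88. Mmp7 was at -0.69 against FVB.CTL.F1, a difference beyond the model SD (-679.7 counts against 656.6), and at -0.06 against FVB.D300.F1. Both comparisons use the C57.D300.F2 counts on which the genes were in part selected. Some seminal vesicle, liver and germ cell genes were also higher in them and epididymal genes lower in that with FVB.D300.F1, as given below with their lists. These differences cannot be told apart from one of strain, generation or exposure.

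DEHP was compared with vehicle within each strain to ask which RNAs differed with prenatal exposure in the first generation. In FVB/N, 2 of the 6 genes were higher in FVB.D300.F1 past the threshold, beside 109 of 16471 genes or 0.662%. Pbsn was at least 6.13-fold higher, a call lost with a pseudocount of 10, and 9530053A07Rik was 19.7-fold higher with a log2 ratio of 4.22. Tgm4 had a log2 ratio of 1.12 and 2300002M23Rik of 1.48, short of the threshold although both differences exceeded the model SD. Mmp7 had a log2 ratio of -0.62, within the model SD.

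In C57BL/6J none of the 6 genes was higher in C57.D300.F1 past the threshold, beside 6 of 16825 genes or 0.0357%, and 1 was lower, beside 43 genes or 0.256%. That gene was 9530053A07Rik, with a log2 ratio of -2.87 and a difference of -32.1 counts against a model SD of 18.7, a call that was lost with a pseudocount of 10 or a minimum of 100 counts. The sign of its ratio between DEHP and vehicle was therefore opposite in the 2 strains, a difference that was not tested. In the C57BL/6J comparison 12 of 13 seminal vesicle genes were lower too, with a median of -10.38, whereas none passed the threshold in FVB/N. Of the 9 measured blood genes, S100a9 alone was lower past it in C57BL/6J, at -2.95. In FVB/N it was 1 of 3 blood genes higher past it, at 2.52. The part of these genes in this difference was not tested. Tgm4 had a log2 ratio of 0.35, Mmp7 of 0.12 and 2300002M23Rik of -0.74, each within the model SD. Pbsn was under the limit of detection in both conditions.

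**Figure D2:**
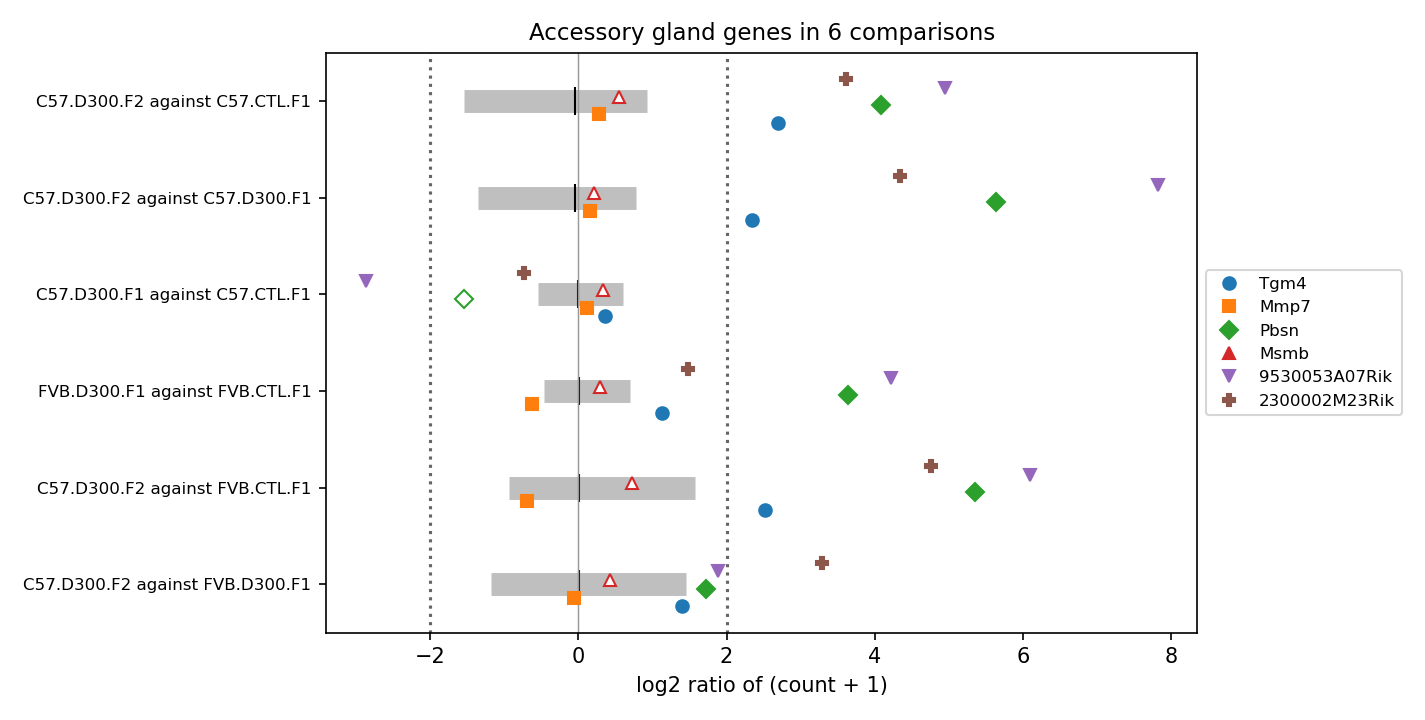
Log2 ratio of count + 1 (horizontal axis) of the 6 accessory gland genes in the 6 comparisons, with filled symbols where at least 1 of both conditions reached 10 counts and open ones (all of Msmb, and Pbsn once) where neither did, grey bars that span the 5th to 95th percentile of all genes with at least 10 counts, black ticks for their median and dotted lines for the threshold of 2 log2 units. In the 3 comparisons of C57.D300.F2 with C57.CTL.F1, C57.D300.F1 and FVB.CTL.F1, 4 genes lie right of the threshold, and Mmp7 lies within the grey bar.

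All 4 genes also shared the condition in the next place. Tgm4, Pbsn, 9530053A07Rik and 2300002M23Rik were highest in C57.D300.F2, as were 2560 of 17701 genes with at least 10 counts in some condition, or 14.5%. FVB.D300.F1 was in the next place for the 4 of them, an order found in 570 genes or 3.22%. For 2300002M23Rik this place rested on 5.00 counts, with a model SD of 11.9. The place of C57.D300.F2 follows in part from the choice of the genes, and nothing is read from these shares.

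The model error of these RNAs was set beside that of other genes at the same count. In C57.D300.F2 the coefficient of variation under the model, the SD divided by the count, was 0.963 for 9530053A07Rik, where genes of similar counts had a median of 0.251. It was 0.490 for Tgm4 beside 0.242, 0.496 for Pbsn beside 0.296 and 0.3002 for 2300002M23Rik beside 0.238. In FVB.D300.F1 it was 0.570 for 9530053A07Rik beside 0.235, 0.592 for Pbsn beside 0.413 and 0.362 for Tgm4 beside 0.289. In C57.D300.F1 the values for Tgm4, 9530053A07Rik and 2300002M23Rik, 0.327, 0.648 and 0.468, lay below the medians of genes with similar counts, 0.335, 0.691 and 0.482. Set against genes of similar counts, the model error of each of the 4 genes was thus largest in C57.D300.F2, the condition of its highest count. How evenly the 5 libraries of a condition carried these RNAs was not analysed here.

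**Figure D3:**
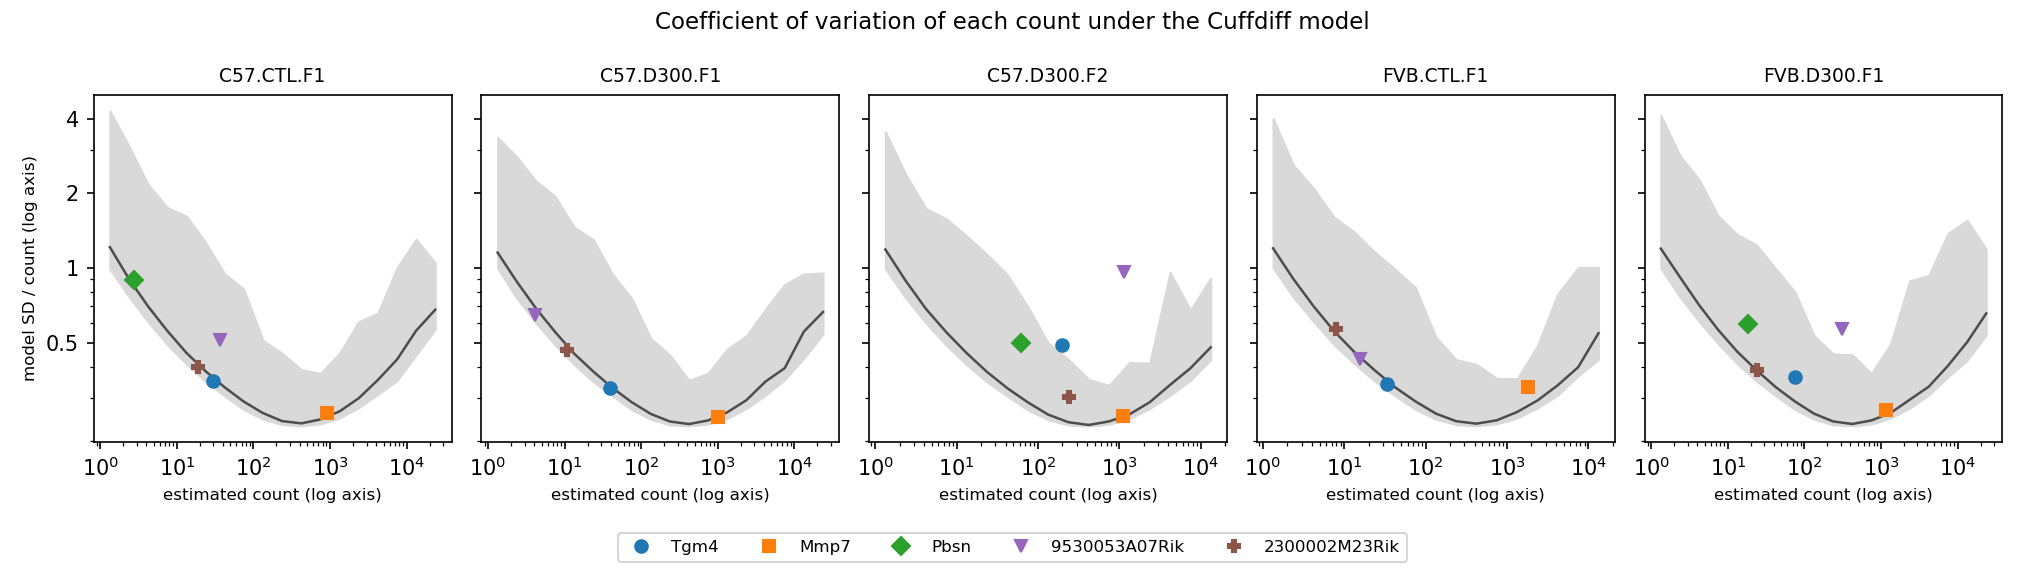
Cuffdiff model SD divided by the count (vertical log axis) against the estimated count (horizontal log axis) in each condition, with a line for the median and a grey band for the 5th to 95th percentile of all genes by count, and symbols for the accessory gland genes with at least 1 count. 9530053A07Rik at 0.963 in C57.D300.F2 and at 0.570 in FVB.D300.F1 lies above the band, as does Tgm4 at 0.490 in C57.D300.F2.

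For each gene with at least 100 counts in its highest condition, the 3 genes with the most similar profile were sought among 11237 others, as the root mean square difference of log2 counts over the 5 conditions after subtracting each mean. Nearest to Tgm4 were Htr5a, which encodes a serotonin receptor, at 0.28, the noncoding 0610005C13Rik at 0.31 and Plekhb1 at 0.32. Htr5a had 141.4 counts in C57.D300.F2 and 25.3 in C57.CTL.F1, and Plekhb1 had 3622 and 1018 in the same order. Nearest to 2300002M23Rik were Tgm4 at 0.84, Htr5b, another serotonin receptor gene, at 0.87 and Pramef12 at 0.93. Nearest to 9530053A07Rik were 2300002M23Rik at 1.62, BC048679 at 1.89 and Tgm4 at 2.02, so that no profile compared was closer than 1.62. Mmp7 had far closer neighbours, Eln, the elastin gene, at 0.04, Aebp2 at 0.06 and Azin1 at 0.07. These distances cover 5 conditions only.

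**Figure D4:**
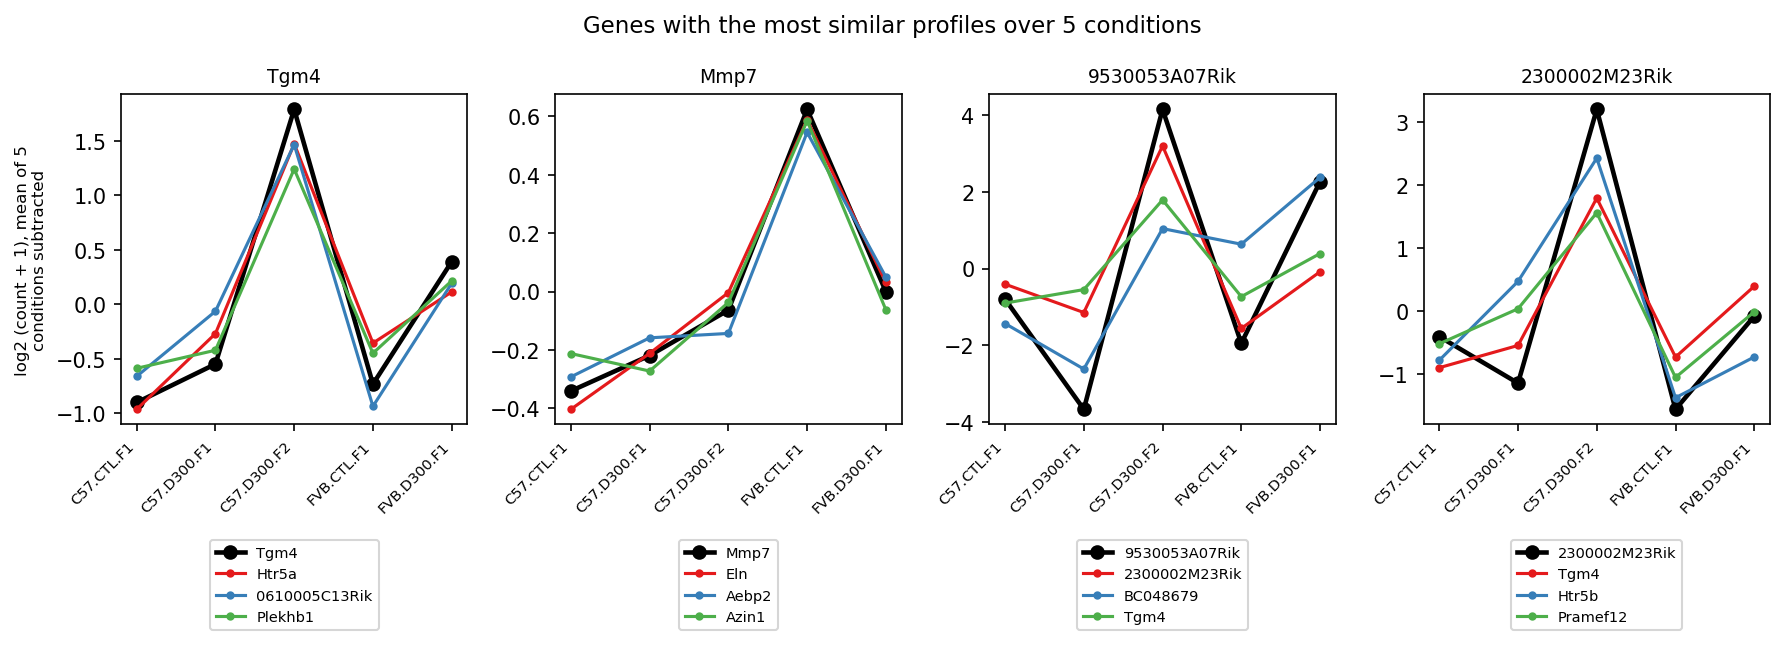
Log2 of count + 1, with the mean over the 5 conditions subtracted (vertical axes, each panel with its own scale), for the 4 accessory gland genes with at least 100 counts in their highest condition (black) and the 3 genes most similar to each (colours), where lines only join the values of a gene. Tgm4 is among the 3 genes nearest to 2300002M23Rik and to 9530053A07Rik, whereas the genes nearest to Mmp7 peak in FVB.CTL.F1.

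Position in the genome was examined through the 2 nearest protein-coding genes on each side of each of the 6 genes, 24 in all. Between C57.D300.F2 and C57.CTL.F1, 1 of the 24 was higher past the threshold and 0 were lower. It was Gm9573, listed in RefSeq as Muc21, a mucin gene 48971 bases from 2300002M23Rik, and it is named after its values were seen. Its counts were 60.8 in C57.D300.F2, 2.11 in C57.D300.F1, 2.91 in C57.CTL.F1, 132 in FVB.D300.F1 and 331 in FVB.CTL.F1, so that unlike 2300002M23Rik it was highest in the FVB/N conditions. Cdsn, 10270 bases from 2300002M23Rik and likewise named after its values were seen, was like it highest in C57.D300.F2, with 14.9 counts against 2.87 in FVB.CTL.F1, where it passed the threshold at 2.04, and 5.58 in C57.CTL.F1, where it did not. Zdhhc3, which overlaps Tgm4, had a log2 ratio of 0.25 in this comparison, and Fbl, 4899 bases from 9530053A07Rik, of -0.20.

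Other prostate genes show how far the label of the gland fits the data. Of 9 further secretory genes, 1 was higher past the threshold in C57.D300.F2 relative to C57.CTL.F1 and 2 were lower, with a median log2 ratio of -0.22 beside 0.03 over all genes. In this comparison 100 of 17114 genes were higher past the threshold and 617 lower. The higher secretory gene was Agr2, a protein of the secretory pathway in mucous epithelia, with 24.0 counts in C57.D300.F2, 4.81 in C57.D300.F1, 3.44 in C57.CTL.F1, 62.0 in FVB.D300.F1 and 0.904 in FVB.CTL.F1. Like Pbsn it was highest in C57.D300.F2 and FVB.D300.F1, in the reverse order. The lower secretory genes were Azgp1, from 1547 to 375 counts, and Pigr, the receptor that carries IgA across epithelia, from 1692 to 62.1 counts. In C57.D300.F1 they had 1197 and 2408 counts, in FVB.CTL.F1 15.5 and 31.5, and in FVB.D300.F1 7.76 and 16.7. All 12 liver genes were lower past the threshold in the same comparison. Their sum, too, was higher in both first generation C57BL/6J conditions than in the others. The part of the liver genes in the fall of Azgp1 and Pigr was not tested. Against FVB/N none of the 9 was lower past the threshold, and Azgp1 was higher in C57.D300.F2 past it at 4.51 over FVB.CTL.F1 and 5.42 over FVB.D300.F1, with Agr2 higher over FVB.CTL.F1 as well. The spermine-binding protein genes Sbp and Sbpl, secretory genes of the mouse prostate, were under 1 count in all 5 conditions. Ltf, the lactoferrin gene, made up most of the summed level of this list, which was 27385 counts in C57.D300.F2, 23200.4 in C57.D300.F1, 31024 in C57.CTL.F1, 41283 in FVB.D300.F1 and 48297 in FVB.CTL.F1.

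Among 10 regulators and membrane proteins of prostate epithelium, 0 were higher and 1, Steap4, was lower past the threshold between C57.D300.F2 and C57.CTL.F1, with a median of 0.30. Of the 10, 8 reached 10 counts in 1 of both conditions. Against FVB/N 1 was lower past it, Psca, with 27.0 counts in C57.D300.F2, 548 in FVB.D300.F1 and 591 in FVB.CTL.F1. Its direction was opposite to that of Tgm4, Pbsn, 9530053A07Rik and 2300002M23Rik, but not to that of Mmp7. Hoxb13, a homeobox gene that marks the prostate, stayed between 0.314 and 1.31 counts. Several defining prostate markers, Msmb, Sbp, Sbpl and Hoxb13, were thus at or near 0 in the conditions where Tgm4, Pbsn and 9530053A07Rik were high. The name accessory gland genes is therefore used for the genes alone, and the presence of gland material in the samples was not tested. In bulk RNA, fewer cells of a type and less RNA per cell cannot be told apart.

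In the gene families of the members few genes passed the threshold. Of 7 other transglutaminases, 2 were higher in C57.D300.F2 relative to C57.CTL.F1 past the threshold, Tgm5 with 10.5 counts against 1.24 and Tgm6 with 10.1 against 1.55, and the median log2 ratio was 0.24. Against C57.D300.F1, none of these 7 was past it. F13a1, the coagulation factor XIII subunit, was the most abundant of them, with 1287 counts in C57.D300.F2 and 1088 in C57.CTL.F1. Of 12 matrix metalloproteinases and inhibitors, none was past the threshold in either comparison, with medians of 0.69 and 0.19. Against FVB.CTL.F1, Mmp3 alone of them was higher in C57.D300.F2 past it, at 2.18. Of 8 gel-forming mucin and Fc binding genes, none was past it in either comparison with the C57BL/6J first generation. In FVB/N the airway mucin gene Muc5b alone was, with 3279 ± 3421 counts in FVB.D300.F1 and 13.9 in FVB.CTL.F1. Muc5b was also lower past it in C57.D300.F2 against FVB.D300.F1, at -7.44.

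Genes of other tissues of the male tract moved with some of these differences, and their part in them was not tested. Of 13 seminal vesicle genes, 4 were higher in C57.D300.F2 than in C57.D300.F1 past the threshold (Svs2, Svs4, Svs5 and Svs6), with a median log2 ratio of 1.18, and 12 were lower in C57.D300.F2 relative to C57.CTL.F1, with a median of -8.56. Their summed level was 3639 counts in C57.D300.F2, 2632 in C57.D300.F1, 268515 in C57.CTL.F1, 5892 in FVB.D300.F1 and 5677 in FVB.CTL.F1. Svs4 was the most abundant in C57.CTL.F1, with 63518 counts but a model SD of 471701, and Ceacam10 in the others. In C57.D300.F1, Svs3a, Svs3b, Svs5, Svs6 and Spink1 were under the limit of detection, and in C57.D300.F2 none of the 13 was. The condition with the highest seminal vesicle level, C57.CTL.F1, had 30.1 counts of Tgm4, 2.74 of Pbsn, 36.2 of 9530053A07Rik and 18.8 of 2300002M23Rik. Of these, 9530053A07Rik was lower in C57.D300.F1 past the threshold, as were 12 of the 13 seminal vesicle genes. Gene by gene, 3 of 13 were higher in C57.D300.F2 past the threshold against FVB.CTL.F1 (Svs5, Svs6 and Sva, median 1.30) and 4 against FVB.D300.F1 (these and Svs2, median 1.33), although the sums, led by Ceacam10, were lower. In the comparisons of C57.D300.F2 with the 3 conditions other than C57.CTL.F1, some seminal vesicle genes were thus higher together with accessory gland genes.

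Of 18 epididymal genes, 17 had a usable estimate in every condition, and 14 of the 18 were higher in FVB.D300.F1 relative to FVB.CTL.F1 past the threshold, with a median log2 ratio of 6.75, beside the higher Pbsn and 9530053A07Rik in the same comparison. In C57.D300.F2 none of the 17 was past the threshold against C57.CTL.F1, with a median of 0.06. The sum over these 17 was 94971 counts in C57.D300.F2, 74096 in C57.D300.F1, 73389 in C57.CTL.F1, 200640 in FVB.D300.F1 and 133857 in FVB.CTL.F1, and Cuzd1 was the most abundant of the 17 in each. The gene left out, Crisp1, had no usable estimate in C57.D300.F1, C57.D300.F2 and FVB.CTL.F1. It had more counts than Cuzd1 in C57.CTL.F1 (108274 ± 247685) and FVB.D300.F1 (219328 ± 753601). Lcn5, Lcn6, Lcn8, Lcn9, Cst11 and Cst12 were under the limit of detection in C57.D300.F2 and over it in FVB.D300.F1. The high Tgm4, Pbsn and 9530053A07Rik of C57.D300.F2 thus occurred with these 6 epididymal genes under that limit, and those of FVB.D300.F1 with all 17 detected. The low level of the 6 was not particular to C57.D300.F2. In C57.CTL.F1, C57.D300.F1 and FVB.CTL.F1 none of them exceeded 9.18 counts, the value of Lcn5 in FVB.CTL.F1. The part of epididymal genes in these differences was not tested. Between C57.D300.F2 and FVB.D300.F1, 14 of the 18 were lower past the threshold, with a median of -7.21.

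All 12 liver genes were lower in C57.D300.F2 relative to C57.CTL.F1 past the threshold, with a median of -5.46, opposite in direction to the 4 accessory gland genes. Within the 15 libraries not marked as a re-analysis the direction was the same as that of the 4 genes, with 6 of 12 higher past the threshold against FVB.CTL.F1 (median 2.00) and 9 of 12 against FVB.D300.F1 (median 2.59). Their sum was 8981 counts in C57.D300.F2, 226004 in C57.D300.F1, 259390 in C57.CTL.F1, 2957 in FVB.D300.F1 and 3502 in FVB.CTL.F1, with Alb the most abundant in the C57BL/6J first generation, at a model SD above its count, and Trf in the rest. The 12 germ cell genes, which mark the sperm themselves, were all detected in every condition and summed to 33303 counts in C57.D300.F2, 82163 in C57.D300.F1, 97727 in C57.CTL.F1, 9971 in FVB.D300.F1 and 8324 in FVB.CTL.F1. Between C57.D300.F2 and C57.CTL.F1 their median was -1.16 and none passed the threshold, whereas 6 were higher past it against FVB.CTL.F1 (median 2.00) and 3 against FVB.D300.F1 (median 1.58). Smcp led this list in C57BL/6J and Odf1 in FVB/N. The 10 genes of smooth muscle and connective tissue had a median of -0.74 between C57.D300.F2 and C57.CTL.F1, made up of 6 contractile genes from -1.74 to -0.70 and of Col1a1, Col1a2, Col3a1 and Dcn from 0.51 to 0.76. None passed the threshold. In the same comparison none of the 9 measured blood genes passed it either, with Hba-a2 at 1.11, Hbb-bs at 1.34 and S100a8 at 1.92 on the higher side and Lyz2 at -1.65 and S100a9 at -1.62 on the lower. Against FVB.CTL.F1 the median of the 9 in C57.D300.F2 was 1.14, with 0 past the threshold. S100a8 was higher in C57.D300.F2 past it against C57.D300.F1 at 2.05 and against FVB.D300.F1 at 2.14. In FVB.D300.F1 relative to FVB.CTL.F1, 3 of these 9 were higher past it, Hba-a2, Hbb-bs and S100a9, with a median of 0.55, in the comparison where Pbsn and 9530053A07Rik were higher too.

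**Figure D5:**
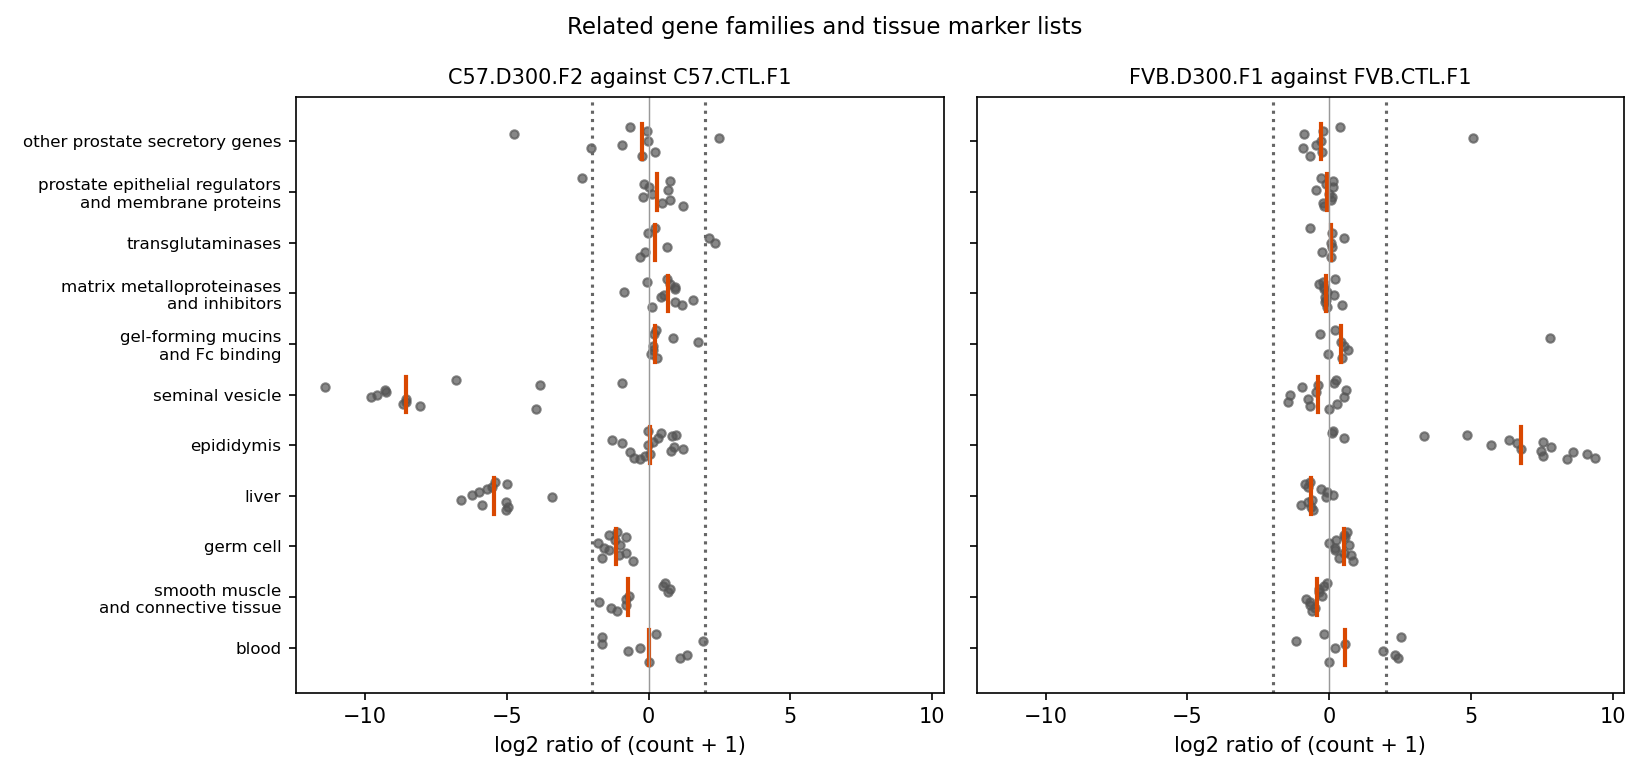
Log2 ratio of count + 1 (horizontal axes, same scale) for each gene (grey points) of 11 lists between C57.D300.F2 and C57.CTL.F1 (left) and for FVB.D300.F1 over FVB.CTL.F1 (right), with orange bars for the list median and dotted lines for the threshold of 2 log2 units. In the left panel 12 of 13 seminal vesicle genes and all 12 liver genes lie left of the threshold, with medians of -8.56 and -5.46, and most epididymal genes lie right of it in the right panel, with a median of 6.75.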

How the data were processed

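Per the labels and methods, the authors removed adapters, mapped reads of at least 18 bases to mm10 with TopHat as strand-specific, and quantified genes with Cuffdiff. The submitters' processing notes name CASAVA 1.8.2. No version of TopHat or Cuffdiff and no gene annotation release is given in them. The deposited values are a signal, 1 estimated count per gene and condition, beside its variance under the Cuffdiff model. Failed estimates, listed as 0, were set to missing, for 71 genes in at least 1 condition. Because single libraries have no value of their own in the table, no test, p-value or SD between animals was computed.

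Log2 ratios used a pseudocount of 1, and calls 2 log2 units with at least 10 counts in 1 of both conditions, in 6 comparisons. The members and the 11 other lists were chosen with earlier results of these data known, as were the motifs. Genes named are the members, list genes and, for members reaching 100 counts, the 3 most similar profiles. Neighbouring genes were added after seeing the data. The Pbsn counting interval is a 95% binomial (Clopper-Pearson) one for the share of both counts, computed from the estimated counts without rounding, so that it is approximate. Symbols were matched to GENCODE M21 for all 6 genes and exonic length is the union of annotated exons. The lists cover other prostate secretory genes, prostate epithelial regulators and membrane proteins, transglutaminases, matrix metalloproteinases and inhibitors, gel-forming mucins and Fc binding, seminal vesicle, epididymis, liver, germ cell, smooth muscle and connective tissue, and blood. Medians cover all list genes with usable estimates, low ones included. Alternatives were 3 scalings, pseudocounts of 0.1 and 10, minimums of 100 and none, a threshold of 1, values under 3 set to 3, and a difference above its model SD. The calling rule was run on simulated counts with planted changes larger than the threshold and with counting error alone. That error is smaller than the model error of these data. The run therefore checked the code and says nothing of the error of the calls. The scripts ran in Python 3.11.15 with scipy 1.17.1, pandas 2.3.3, matplotlib 3.10.9 and numpy 2.4.6.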

Additional observations from a re-analysis of the deposited data

How the results depend on the processing

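No paired analysis was possible because the table holds 1 value per condition, although libraries share replicate numbers in the labels. Leave-one-out and replicate block alternatives were not run, for the same reason. Of the alternative values of the members' log2 ratios, 157 moved by 0.5 log2 units or less, 17 moved more and none that had passed the threshold changed sign. With a pseudocount of 10, the ratio of 2300002M23Rik was 3.58 against C57.D300.F1 and 3.81 against FVB.CTL.F1 in C57.D300.F2, and 0.92 for FVB.D300.F1 over FVB.CTL.F1. That of 9530053A07Rik was 6.36, 5.49 and 3.64 in the same comparisons and -1.71 for C57.D300.F1 over C57.CTL.F1. That of Pbsn in C57.D300.F2 was 2.51 against C57.CTL.F1, 2.82 against C57.D300.F1 and 2.78 against FVB.CTL.F1, and 1.43 for FVB.D300.F1 over FVB.CTL.F1. With a pseudocount of 0.1 the last 3 of these were 7.37, 6.57 and 4.81, and with values under 3 counts set to 3 they were 3.99, 3.99 and 2.28, since the lower count lies under 3. The number of members past the threshold in the 3 comparisons of C57.D300.F2 with C57.CTL.F1, C57.D300.F1 and FVB.CTL.F1 was 4 under each alternative except the minimum of 100 counts, where it was 3 because Pbsn did not reach it. For C57.D300.F2 against FVB.D300.F1 it was 2 with equal totals, where 9530053A07Rik joined, and 4 at a threshold of 1. For FVB.D300.F1 against FVB.CTL.F1 it was 1 with a pseudocount of 10 or a minimum of 100, and 4 at a threshold of 1. For C57.D300.F1 over C57.CTL.F1 it was 0 with a pseudocount of 10 or a minimum of 100. Over all genes, a threshold of 1 gave 2441 genes past it for C57.D300.F2 against C57.CTL.F1 in place of 717, 1891 against C57.D300.F1 in place of 623, 2677 against FVB.CTL.F1 in place of 544 and 3008 against FVB.D300.F1 in place of 617. It gave 377 in place of 49 for C57.D300.F1 over C57.CTL.F1 and 457 in place of 112 for FVB.D300.F1 against FVB.CTL.F1. A pseudocount of 10 gave 219 against FVB.CTL.F1 and 293 against FVB.D300.F1 for C57.D300.F2, and 31 for C57.D300.F1 over C57.CTL.F1. A minimum of 100 counts gave 242, 308 and 30 in the same comparisons, and 74 for FVB.D300.F1 against FVB.CTL.F1. Requiring a difference above its model SD gave 29 for C57.D300.F1 over C57.CTL.F1. A lower threshold adds genes by construction, and a higher minimum or pseudocount removes genes of low count. For the other alternatives the cause was not tested. Equal totals moved the median of all genes by 0.32 against C57.CTL.F1, 0.17 against C57.D300.F1, 0.13 against FVB.CTL.F1 and 0.26 against FVB.D300.F1 in C57.D300.F2, by 0.15 for C57.D300.F1 over C57.CTL.F1 and by -0.13 for FVB.D300.F1 against FVB.CTL.F1, and the upper quartile moved it by 0.21 and 0.18 in the first pair. With equal totals the share of calls that were higher went from 13.9% to 24.5% for C57.D300.F2 against C57.CTL.F1 and from 56.1% to 71.7% against FVB.D300.F1. The log2 ratio of Mmp7 against FVB.D300.F1 changed sign, between -0.06 and 0.19. Msmb and, outside C57.D300.F2 and FVB.D300.F1, Pbsn lie under the limit of detection, so that differences among those values were not detectable at this depth.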
